A study of Mus musculus with 4 samples.

Results

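The adhesion and orphan G protein-coupled receptors were taken as every gene whose symbol in the platform annotation starts with Adgr, or with Gpr followed by a digit. Gpr17 was left out by the same rule. This gave 82 of the 18193 genes with a probe set of their own, 22 with an Adgr symbol and 60 with a Gpr symbol, measured by 133 probe sets. A probe set is a group of short probes for 1 transcript, and a gene was represented by its probe set with the highest mean signal over the arrays. Another 5 probe sets that name a member together with a second gene were not used.

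RNA came from cultured neuroepithelial cells, the dividing precursors of neurons and glia, prepared from the telencephalon of ICR mouse embryos. In the later group (E14.5, 2 arrays) the cells were taken at embryonic day 14.5 and grown for 4 days, and in the earlier group (E11.5, 2 arrays) they were taken at embryonic day 11.5 and grown for 1 day. Both groups had 10 ng/ml basic FGF, which keeps precursors dividing, on a coating of polyornithine and fibronectin. Age and time in culture changed together and cannot be told apart, and the labels do not say whether the arrays of a group came from separate cultures or litters, so p-values reflect only how far these arrays vary, and that variation may be technical.

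G protein-coupled receptors cross the membrane several times and pass an outside signal to heterotrimeric G proteins inside the cell. Adhesion receptors carry a long outer part that binds matrix or proteins of neighbouring cells, and most are cut by themselves at a site next to the membrane, which lets the bound part uncover an activating stretch. Orphan receptors are those for which no agreed ligand is known; many signal without one. In the developing brain, adhesion receptors are known for roles in migration, synapse formation and myelination, and several orphan receptors are expressed mostly by neurons or mostly by glia.

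Of the 82 genes, 52 reached the limit for testing, a mean of 27.3 in scaled signal units, and 30 lay below it. Of the 52 tested, 9 were higher and 8 were lower at E14.5 and 35 did not pass an adjusted p of 0.05 in limma, a linear model fitted over all probe sets. The share called was 32.7%, with 27.8% over all 12952 genes tested, so it lay near the background. Higher receptors made up 17.3% (all genes 14.3%) and lower ones 15.4% (all genes 13.6%). A log2 difference of at least 1 in size was reached by 6 of the higher and 6 of the lower receptors, 11.5% each, with 6.47% and 6.27% over all genes. The median log2 difference of the tested receptors, E14.5 minus E11.5, was 0.19, and that of all genes was 0.03. The signals of the groups did not overlap for 36 of the 52 receptors (69.2%, all genes 65.6%), among them all 17 that were called. Of the 52, 13 passed the limit although 1 group had a mean under it, and 6 of these were called. Such genes could pass only through the group in which they were high. The 6 called ones were Gpr146, Gpr20, Gpr22, Gpr27, Gpr37l1 and Gpr50, and each had a log2 difference of at least 1 in size. The shares at that size rest partly on these 6.

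**Figure D1:**
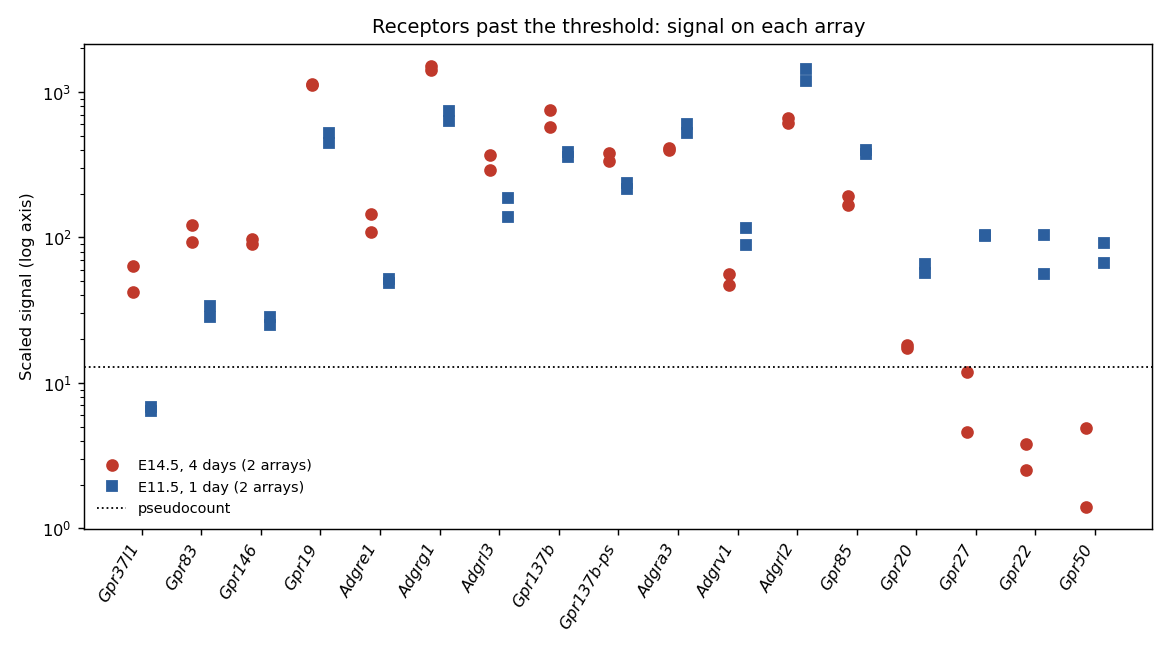
Scaled signal (log axis) on each of the 4 arrays for the 17 receptors that passed the threshold, ordered by log2 difference; red circles are the 2 E14.5 arrays, blue squares the 2 E11.5 arrays, and the dotted line is the pseudocount of 12.8. The circles and squares of each receptor do not overlap, and Gpr27, Gpr22 and Gpr50 lie under the line on both E14.5 arrays, as Gpr37l1 does on both E11.5 arrays.

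Because the arrays were brought to one trimmed mean, higher and lower are meant against an array's average. With the values as deposited, where the median difference of all genes was -0.69, 0 of 50 tested receptors were called higher and 10 were called lower. Over all 12926 genes tested there, 246 were called higher and 2241 lower. In a bulk sample, fewer cells of a type and less RNA per cell cannot be told apart.

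By the probe set that represented each gene, and with the pseudocount explained below, the largest differences were those of 4 orphan receptors at low signal. Gpr37l1, a receptor of astrocytes and oligodendrocyte precursors for which prosaposin has been proposed as a ligand, had scaled signals of 63.2 and 42.0 in E14.5 cells, against 6.39 and 6.78 in E11.5 cells. Its log2 difference was 1.73 ± 0.39 (SE, with n = 2 arrays in either group here and below; adjusted p = 0.0094). Gpr50, an X-linked relative of the melatonin receptors that does not bind melatonin, had 4.90 and 1.41 in E14.5 cells, against 91.7 and 66.5 in E11.5 cells, a log2 difference of -2.52 ± 0.38 (adjusted p = 0.00097). Gpr22, an orphan receptor of brain and heart, had 3.78 and 2.50 in E14.5 cells and 56.1 and 103 in E11.5 cells (-2.49 ± 0.40, adjusted p = 0.0015). The E11.5 arrays of Gpr22 differed more from each other than those of any of the other 3 genes, and without E11.5 replicate 2 its difference of -2.11 no longer passed (adjusted p = 0.0502).

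A constant of 12.8, the pseudocount, was added before log2 was taken, and all 4 of these genes (Gpr27 included, described with its family) had 1 group mean below it. The size of their differences therefore depends on it, and without detection calls it is not known whether their signals in that group were above background. With an eighth of the pseudocount and with the median of all values in its place, the log2 difference was 2.70 and 0.95 for Gpr37l1, -4.17 and -1.42 for Gpr50, -4.05 and -1.40 for Gpr22 and -3.52 and -1.53 for Gpr27.

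The upstream sequences of the 2 receptors with the largest differences in each direction by that measure are shown because the array says how much transcript there was and the promoter is where its transcription starts. Of the 82 genes, 63 had at least 1 promoter in the RefSeq table (build GRCm38.p6), as had 12 of the 17 called. Each line holds the 250 bases before the start, 5′ to 3′ on the gene's strand. Capitals mark E-boxes, CANNTG on either strand, the letters bound by basic helix-loop-helix factors such as the Olig and neurogenin proteins. Gpr37l1 lies at chr1:135167682-135167931 on the minus strand, Gpr83 at chr9:14859960-14860209 on the plus strand, Gpr50 at chrX:71663417-71663666 on the plus strand and Gpr22 at chr12:31713884-31714133 on the minus strand.
Gpr37l1 (higher at E14.5): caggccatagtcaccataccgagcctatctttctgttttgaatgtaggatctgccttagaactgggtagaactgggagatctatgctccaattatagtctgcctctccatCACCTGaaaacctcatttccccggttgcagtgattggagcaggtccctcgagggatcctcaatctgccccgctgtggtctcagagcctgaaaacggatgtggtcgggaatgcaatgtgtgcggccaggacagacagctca
Gpr83 (higher at E14.5): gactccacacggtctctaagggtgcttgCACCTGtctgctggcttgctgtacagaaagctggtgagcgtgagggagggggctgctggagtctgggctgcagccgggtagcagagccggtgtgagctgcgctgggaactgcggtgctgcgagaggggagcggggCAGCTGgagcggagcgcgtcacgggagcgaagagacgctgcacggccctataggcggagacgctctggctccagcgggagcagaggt
Gpr50 (lower at E14.5): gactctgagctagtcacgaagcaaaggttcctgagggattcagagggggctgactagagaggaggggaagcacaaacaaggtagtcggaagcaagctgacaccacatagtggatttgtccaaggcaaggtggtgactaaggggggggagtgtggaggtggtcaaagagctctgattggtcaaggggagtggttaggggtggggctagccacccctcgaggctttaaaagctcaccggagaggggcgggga
Gpr22 (lower at E14.5): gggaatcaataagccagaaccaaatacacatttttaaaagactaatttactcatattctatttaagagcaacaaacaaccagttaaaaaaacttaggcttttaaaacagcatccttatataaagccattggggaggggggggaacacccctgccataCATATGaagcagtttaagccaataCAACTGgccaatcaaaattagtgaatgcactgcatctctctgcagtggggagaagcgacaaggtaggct

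The Gpr37l1 window held 1 E-box, those of Gpr83 and Gpr22 held 2 each, and that of Gpr50 held none, in windows of genes that went in either direction. An E-box stood in 66.2% of all 32851 promoter windows of this length and in 72.0% of the 82 windows of member genes, several of which have more than 1 start. The SOX letters ACAAAG stood in 16.5% of all windows and 15.9% of the members' windows, and the STAT letters TTCNNNGAA in 7.02% and 6.10%; both strands were searched, overlap between matches of different motifs was not examined, and neither occurs in the 4 windows shown. The Gpr83 window held 18 CG pairs and that of Gpr22 only 1, while the median over all windows was 6. A match of letters describes the sequence only.

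Latrophilins, the adhesion receptors that bind teneurins and FLRT proteins across the synapse, moved apart. Adgrl3 had scaled signals of 291 and 369 in E14.5 cells, against 138 and 186 in E11.5 cells, and rose by 0.98 ± 0.20 on the log2 scale (adjusted p = 0.0060). Adgrl2 had 666 and 614 in E14.5 cells, against 1191 and 1449 in E11.5 cells, and fell by 1.02 on the log2 scale (SE 0.14, adjusted p = 0.00066). Adgrl1, the receptor of the spider toxin latrotoxin, had 629.9 and 737 in E14.5 cells and 816 and 596 in E11.5 cells, with overlapping groups (-0.03 ± 0.17, adjusted p = 0.92). Leaving out E11.5 replicate 1 gave 0.19, leaving out E14.5 replicate 1 gave 0.08, and the sign thus turned in both cases.

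The probe sets of Adgrl3 spread widely. Of its 6 tested probe sets 2 were higher and 4 did not pass, with log2 differences from 0.08 to 2.11; the largest belonged to a probe set with 329 and 454 in E14.5 cells, against 70.1 and 90.4 in E11.5 cells. Which transcript variants each probe set detects was not examined. Both tested probe sets of Adgrl2 were lower (-1.02 and -0.61).

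**Figure D2:**
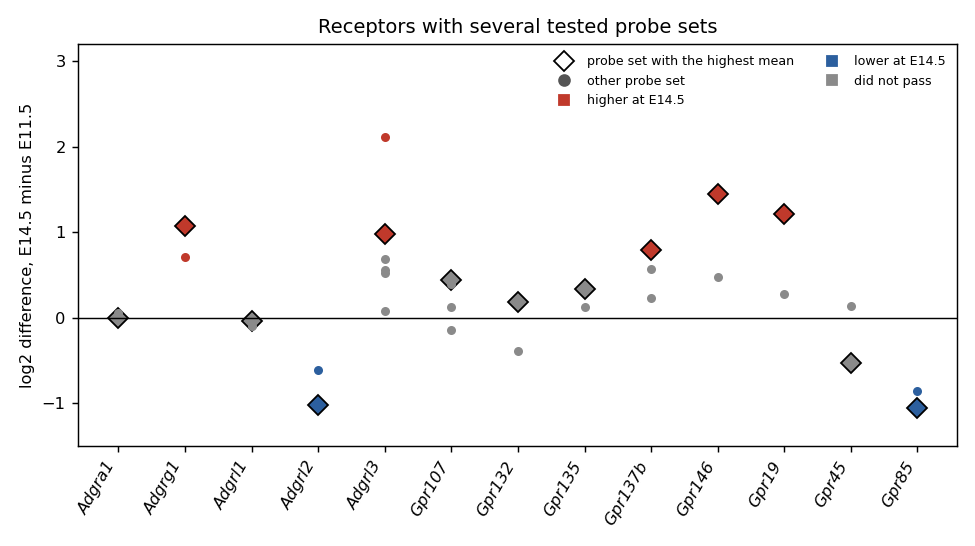
Log2 difference, E14.5 minus E11.5, of each tested probe set for the 13 receptors that had several; outlined diamonds are the probe sets with the highest mean, circles the others, red higher, blue lower and grey not passing. No receptor had probe sets called in opposite directions, and Adgrl3 spans 0.08 to 2.11.

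In the adhesion G subfamily, Adgrg1 rose. Adgrg1, also named GPR56, binds collagen III, is mutated in a human malformation of the cortex and keeps oligodendrocyte precursors dividing in the mouse. It had 1509 and 1409.8 in E14.5 cells, against 635 and 744 in E11.5 cells (1.07 ± 0.14, adjusted p = 0.00037). Its second probe set also rose (0.71 ± 0.19, adjusted p = 0.023). Adgrg6, known for Schwann cell myelination, had 27.5 and 25.3 in E14.5 cells and 46.1 and 41.3 in E11.5 cells, and did not pass (adjusted p = 0.28). Adgrg3 did not pass either (adjusted p = 0.75).

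Adgre1, which encodes the macrophage antigen F4/80, had 109.7 and 145 in E14.5 cells, against 48.2 and 51.9 in E11.5 cells (1.15 ± 0.24, adjusted p = 0.0071). Markers of microglia and macrophages moved the same way: 10 of 12 tested were higher and none was lower, and the summed signal of all 15 lay between 2329 and 2429.9 on the E14.5 arrays and between 358 and 512 on the E11.5 arrays. Its part in the difference of Adgre1 was not tested. Adgre5, or CD97, a leukocyte receptor that binds CD55, had 73.1 and 91.8 in E14.5 cells and 52.2 and 17.9 in E11.5 cells and did not pass (1.08 ± 0.37, adjusted p = 0.059). It passed without E11.5 replicate 1 (1.62), and without E11.5 replicate 2 the difference was 0.54.

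Adgrv1, a very large receptor found in the ventricular zone of the embryonic mouse brain, had 47.1 and 56.5 in E14.5 cells, against 116 and 88.4 in E11.5 cells (-0.82 ± 0.25, adjusted p = 0.041). Adgra3 had 413 and 401 in E14.5 cells, against 606 and 523 in E11.5 cells (-0.46 ± 0.15, adjusted p = 0.049). Both calls were marginal, and neither was kept without the limit for testing or without the variance trend. That of Adgra3 was also lost under quantile normalization, without scaling and with an eighth of the pseudocount. The call of Adgrv1 was lost when E11.5 replicate 1 (-0.65) was left out and when E14.5 replicate 1 (-0.72) was. For Adgra3 this held when E11.5 replicate 1 (-0.35), E14.5 replicate 1 (-0.48) and E14.5 replicate 2 (-0.44) were omitted one at a time.

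None of the 3 brain angiogenesis inhibitors, adhesion receptors of neurons and glia that help in engulfing dead cells and at synapses, passed the test, and without scaling the sign of all 3 turned. Adgrb2 had 1005 and 887 in E14.5 cells and 812 and 609.9 in E11.5 cells (0.42 ± 0.16, adjusted p = 0.093), and it passed without E11.5 replicate 1 (0.62). Adgrb1 had 242 and 186 in E14.5 cells and 157 and 161 in E11.5 cells (0.39 ± 0.19, adjusted p = 0.18). Adgrb3, the receptor of the C1q-like proteins, had overlapping groups, with 309 and 337 in E14.5 cells and 269 and 311 in E11.5 cells (0.15 ± 0.16, adjusted p = 0.56).

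Gpr37, the close relative of Gpr37l1 that restrains myelination in the mouse, did not move with it. Its signals overlapped, with 55.1 and 80.0 in E14.5 cells and 75.4 and 61.0 in E11.5 cells (-0.02 ± 0.27, adjusted p = 0.97); the sign turned under quantile normalization (0.01), on omitting E11.5 replicate 1 (0.10) and on omitting E14.5 replicate 1 (0.20). The difference between the responses of the 2 genes was not tested. Beside the rise of Gpr37l1, 10 of 11 astrocyte markers and 9 of 11 tested oligodendrocyte lineage markers were higher and none was lower. The summed signal of the astrocyte markers lay between 20685 and 24569 on the E14.5 arrays, against 5755 to 5969 on the E11.5 arrays, and that of the oligodendrocyte markers between 20262 and 21769 on the E14.5 arrays, against 1254 to 1614 on the E11.5 arrays. Their part in the difference of Gpr37l1 was not tested.

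The SREB receptors are 3 orphan receptors of the brain whose sequence has hardly changed in vertebrate evolution, and 2 of them fell. Gpr27 had 4.60 and 11.9 in E14.5 cells, against 104 and 103 in E11.5 cells (-2.48 ± 0.33, adjusted p = 0.00050). Gpr85 had 166 and 194 in E14.5 cells, against 399 and 375 in E11.5 cells (-1.05 ± 0.17, adjusted p = 0.0014), and all 3 of its tested probe sets were lower (-1.05 to -0.86). The third member, Gpr173, had 147 and 130.1 in E14.5 cells and 163 and 191 in E11.5 cells, and did not pass (-0.33 ± 0.19, adjusted p = 0.27). Neuronal markers moved with these receptors, with 13 of 15 lower and none higher and a summed signal of 6555 to 6776 on the E14.5 arrays, against 18849 to 19898 on the E11.5 arrays. Their part in the differences of Gpr22, Gpr27, Gpr85 and Adgrl2 was not tested.

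Among the other orphan receptors, Gpr83, Gpr146 and Gpr19 rose. Gpr83, a receptor of hypothalamic neurons and regulatory T cells, had 93.0 and 123 in E14.5 cells, against 28.5 and 33.5 in E11.5 cells (1.45 ± 0.27, adjusted p = 0.0035). Gpr146, which raises plasma cholesterol in the mouse through the liver, had 98.3 and 90.1 in E14.5 cells, against 24.9 and 28.3 in E11.5 cells (1.44 ± 0.27, adjusted p = 0.0038). Gpr19 had 1143 and 1118 in E14.5 cells, against 519 and 446 in E11.5 cells (1.21 ± 0.14, adjusted p = 0.00020). In each of the 3 the groups did not overlap, which held for all 17 called receptors. The second tested probe sets of Gpr146 (0.48 ± 0.43) and Gpr19 (0.27 ± 0.35), both dim, did not pass.

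Gpr20, an orphan receptor coupled to inhibitory G proteins, had 18.4 and 17.5 in E14.5 cells, against 65.5 and 57.0 in E11.5 cells (-1.27 ± 0.32, adjusted p = 0.017). It missed the threshold when either E11.5 array was left out (replicate 1, -1.18; replicate 2, -1.35). Gpr176, which helps set the circadian clock in the mouse, had 34.0 and 45.9 in E14.5 cells and 61.6 and 100.0 in E11.5 cells, and did not pass (-0.81 ± 0.30, adjusted p = 0.084). It passed without E11.5 replicate 1 (-1.11) and without scaling (-1.44). Gpr161, a ciliary receptor that restrains hedgehog signalling in the mouse neural tube, had 341 and 379 in E14.5 cells and 361 and 440.4 in E11.5 cells, overlapping groups that did not pass (-0.15 ± 0.16, adjusted p = 0.58). Gpr162 had 245 and 297 in E14.5 cells and 376 and 342 in E11.5 cells (-0.39 ± 0.17, adjusted p = 0.12).

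Several proteins carry a Gpr name but work inside the cell, on the Golgi or on lysosomes. By the probe set that represented each gene, all 8 of these had positive differences, from 0.14 to 1.02, without overlap of the groups. Over all genes 65.6% did not overlap, and the share with a positive difference was not counted. The largest was that of Gpr137c, with 29.4 and 50.8 in E14.5 cells and 3.98 and 25.9 in E11.5 cells. It did not pass (1.02 ± 0.48, adjusted p = 0.15), and its E11.5 mean of 14.9 lay under the limit for testing. Of the 4 tested probe sets of Gpr107 none passed, and their log2 differences ran from -0.15 to 0.44. Only Gpr137b passed, which is 12.5% of the 8 (all genes higher 14.3%), and without scaling the sign turned for Gpr107, Gpr108, Gpr137, Gpr180 and Gpr89. Gpr137b, a lysosomal membrane protein, had 749 and 572 in E14.5 cells, against 358 and 387 in E11.5 cells (0.79 ± 0.17, adjusted p = 0.0062). Its call was lost without the variance trend (adjusted p = 0.056) and without scaling, where its log2 difference was 0.04. Its pseudogene, Gpr137b-ps, had 335 and 378 in E14.5 cells, against 236 and 216 in E11.5 cells (0.63 ± 0.16, adjusted p = 0.019). Its call was lost on omitting E11.5 replicate 2 (0.57) and on omitting E14.5 replicate 2 (0.54), and without scaling its sign turned (-0.12). The 2 sequences are near copies and 4 further probe sets name both, so which of them gave the signal is uncertain. Both are counted among the 9 higher receptors, and these 2 calls may not be separate. The other 2 tested probe sets of Gpr137b did not pass.

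Of the remaining intracellular proteins, Gpr137 (0.56 ± 0.18, adjusted p = 0.0504) and Gpr155 (0.79 ± 0.26, adjusted p = 0.055), a lysosomal cholesterol sensor, missed the threshold narrowly. Gpr155 passed without E11.5 replicate 1 (0.99), and Gpr108, a Golgi protein, without E11.5 replicate 2 (0.79; 0.44 ± 0.24 over all arrays). Gpr107, also of the Golgi, had 300.1 and 329 in E14.5 cells and 241 and 215 in E11.5 cells (0.44 ± 0.17, adjusted p = 0.080). Gpr89, which regulates Golgi acidity, had 248 and 250.2 in E14.5 cells and 226 and 222 in E11.5 cells (0.14 ± 0.16, adjusted p = 0.59). Gpr180 had 239 and 219.7 in E14.5 cells and 200.0 and 168 in E11.5 cells (0.30 ± 0.18, adjusted p = 0.27).

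The proton and lipid receptors known from blood and vessel cells gave no call. Of 12 on the array 6 were tested, with log2 differences from -0.69 to 0.48. Gpr183, an oxysterol receptor of immune cells, had 7.31 and 46.1 in E14.5 cells and 34.3 and 53.0 in E11.5 cells (-0.69 ± 0.49, adjusted p = 0.36). Its E14.5 arrays were far apart: without E14.5 replicate 2 the difference was -1.47 and passed, and without E14.5 replicate 1 it was 0.08. A second Gpr183 probe set, below the limit for testing, went the other way without overlap of the groups. It had 25.3 and 14.8 in E14.5 cells, against 3.18 and 3.61 in E11.5 cells. Gpr34, a microglial receptor, stayed below the limit for testing, with 7.74 and 17.0 in E14.5 cells and 2.00 and 1.32 in E11.5 cells. Gpr65, a proton sensor of leukocytes, did so too.

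**Figure D3:**
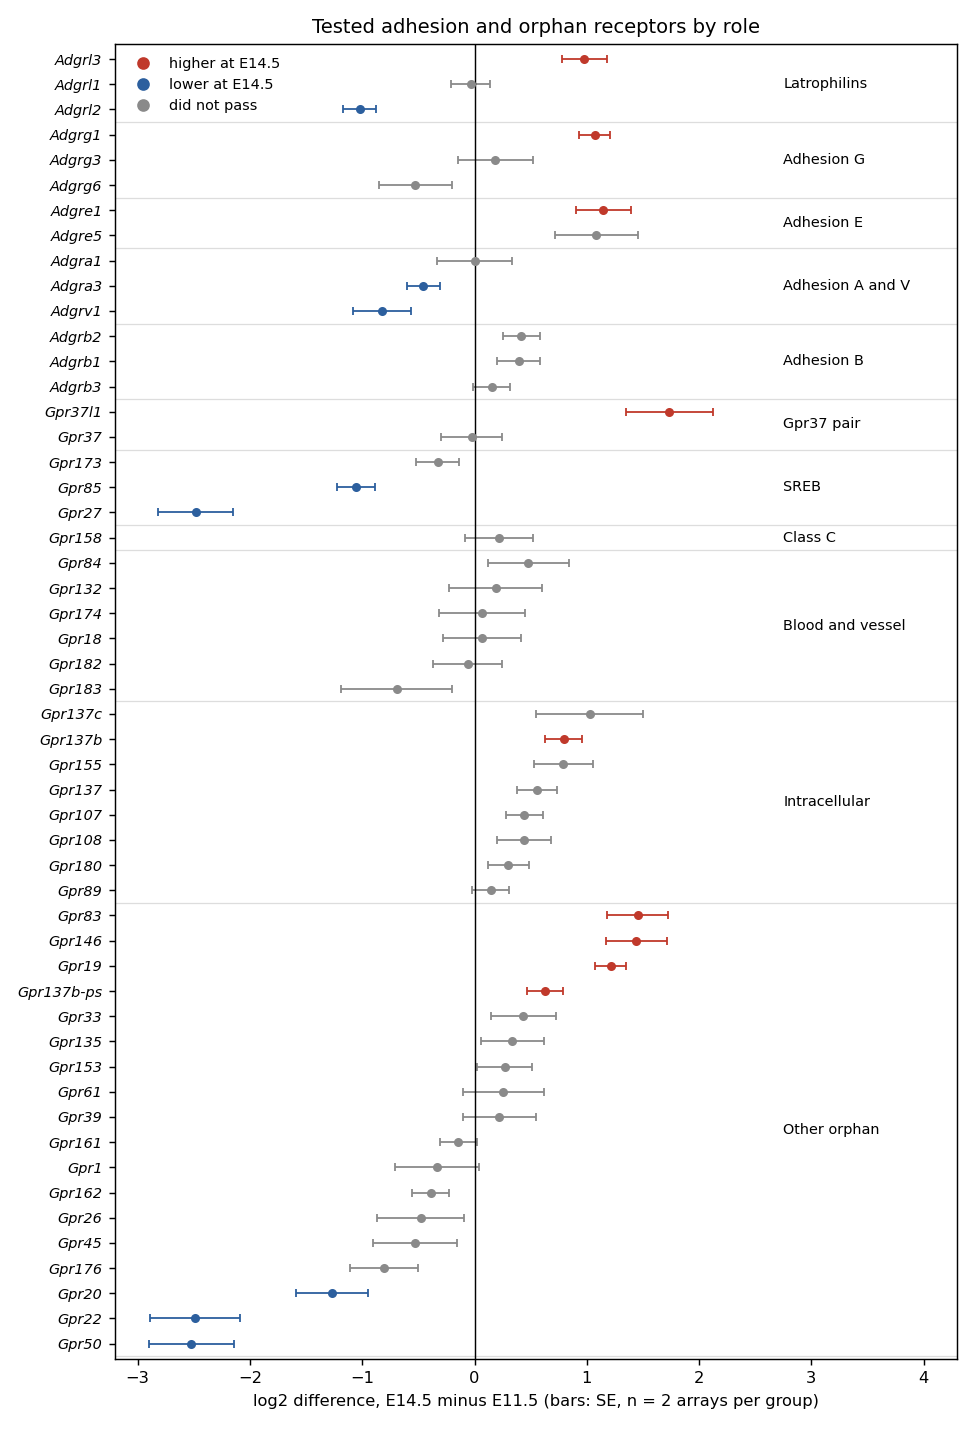
Log2 difference, E14.5 minus E11.5, of the 52 tested receptors grouped by role, with bars for the SE (n = 2 arrays per group); red is higher, blue lower and grey not passing. The points run from -2.52 for Gpr50 to 1.73 for Gpr37l1, and the intracellular group lies to the right of 0, although without scaling the sign turned for 5 of these genes.

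The 35 tested receptors that did not pass had log2 differences from -0.81 to 1.08, 23 positive and 12 negative, with SEs from 0.16 to 0.49. At an unadjusted p of 0.05, 24 of the 52 would have been called. The share over all genes at that p was not counted, so the 24 cannot be set against a background. The 30 receptors below the limit had signals from 0.568 to 50.5 on single arrays. They include all 3 receptors that raise cyclic AMP without a ligand (Gpr3, Gpr6 and Gpr12), the adhesion F receptors on the array (Adgrf1, Adgrf4 and Adgrf5) and 2 vessel receptors, Adgra2 and Adgrl4. When all probe sets were tested, 1 of the 30 passed, Adgrg2, a receptor of the male reproductive tract. Over all 18193 genes in that fit, which include those above the limit, 1403 were higher and 1360 lower. Adgrg2 had 2.48 and 5.00 in E14.5 cells, against 38.0 and 43.8 in E11.5 cells (-1.70 ± 0.33 in that fit, adjusted p = 0.019). The groups overlapped in its second probe set, with 1.07 and 10.4 in E14.5 cells and 1.23 and 2.91 in E11.5 cells. Gpr149 had 24.4 and 39.4 in E14.5 cells and 2.08 and 7.15 in E11.5 cells, and Gpr179 had 50.5 and 36.1 in E14.5 cells and 11.7 and 9.69 in E11.5 cells; neither passed.

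The Celsr proteins are adhesion receptors with cadherin repeats whose symbols the rule does not take. Of 5 tested Celsr and GPRC5 genes 2 were lower and none was higher, with 13.6% lower and 14.3% higher over all genes. Celsr3, needed for axon tracts of the forebrain, averaged 78.1 ± 32.4 in E14.5 cells and 406 ± 87.4 in E11.5 cells (SD, n = 2 each; -2.24 ± 0.26, adjusted p = 0.00021). Celsr2 averaged 338 ± 30.2 in E14.5 cells and 707 ± 44.1 in E11.5 cells (-1.04 ± 0.15, adjusted p = 0.00072). Celsr1 (-0.33 ± 0.19) and Gprc5b (0.09 ± 0.19) did not pass.

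Of 17 tested ligands of these receptors 3 were higher and 5 lower, with a median of -0.21. Over all genes 14.3% were higher and 13.6% lower. Psap, which encodes the prosaposin named above, was among the higher (0.94 ± 0.12, adjusted p = 0.00045). Col3a1, the gene of collagen III, was among the lower (-0.83 ± 0.17, adjusted p = 0.0061). A link to the differences of Gpr37l1 and Adgrg1 was not tested. Of the 4 teneurins, ligands of the latrophilins, 3 fell and Tenm2 did not pass (-0.33 ± 0.19, adjusted p = 0.25). Tenm4 averaged 88.9 ± 33.2 in E14.5 cells and 461 ± 43.5 in E11.5 cells (-2.26 ± 0.23, adjusted p = 9.6e-05), with differences of -2.23 ± 0.24 for Tenm1 (adjusted p = 0.000125) and -1.69 ± 0.15 for Tenm3 (adjusted p = 4.0e-05). C1ql1, a ligand of Adgrb3 made in the brain by few cell types, rose, with 239 ± 71.0 in E14.5 cells and 84.6 ± 23.5 in E11.5 cells (1.36 ± 0.26, adjusted p = 0.0036). Of the FLRT proteins, Flrt1 was lower (-1.07 ± 0.24, adjusted p = 0.010), and Flrt3 (-0.53 ± 0.26) and Flrt2 (-0.11 ± 0.20) did not pass. Flrt3 passed without E11.5 replicate 2 (-0.99), and without E11.5 replicate 1 the difference was -0.08; the sign of Flrt2 turned without E14.5 replicate 1 (0.16).

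Of 26 tested G protein subunits 5 were higher and 6 lower (median 0.10), with 14.3% higher and 13.6% lower over all genes. The gamma subunits went both ways: Gng3, a neuronal subunit, averaged 380.4 ± 50.4 in E14.5 cells and 1956 ± 219.8 in E11.5 cells (-2.33 ± 0.15, adjusted p = 5.4e-06), while Gng12 averaged 2024 ± 438 in E14.5 cells and 579 ± 106 in E11.5 cells (1.78 ± 0.18, adjusted p = 8.5e-05). Gng4 (-1.55 ± 0.33) and Gng8 (-1.35 ± 0.37) were lower. Gng4 was at -0.99 without E14.5 replicate 2, and Gng8 missed the threshold on omitting E11.5 replicate 2 (-1.13) and likewise on omitting E14.5 replicate 1 (-1.02). The beta subunits Gnb1 (-0.24 ± 0.11) and Gnb2 (0.28 ± 0.12) did not pass.

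Of 20 tested arrestins, receptor kinases and RGS proteins, which end receptor signalling, 3 were higher and 6 lower (median -0.03). The shares over all genes were 14.3% higher and 13.6% lower. Rgs8, an RGS protein of neurons, averaged 47.6 ± 4.57 in E14.5 cells and 309 ± 40.6 in E11.5 cells (-2.41 ± 0.21), and Rgs16 fell by 1.55 on the log2 scale. Rgs20 averaged 682 ± 19.0 in E14.5 cells and 198 ± 18.1 in E11.5 cells (1.72 ± 0.15). Rgs1, an RGS protein of leukocytes, rose by 1.62 ± 0.41 and missed the threshold on omitting E11.5 replicate 1 (1.32) and likewise on omitting E14.5 replicate 2 (1.33). Arrb2 (0.09 ± 0.16) and Rgs12 (0.35 ± 0.15) did not pass.

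**Figure D4:**
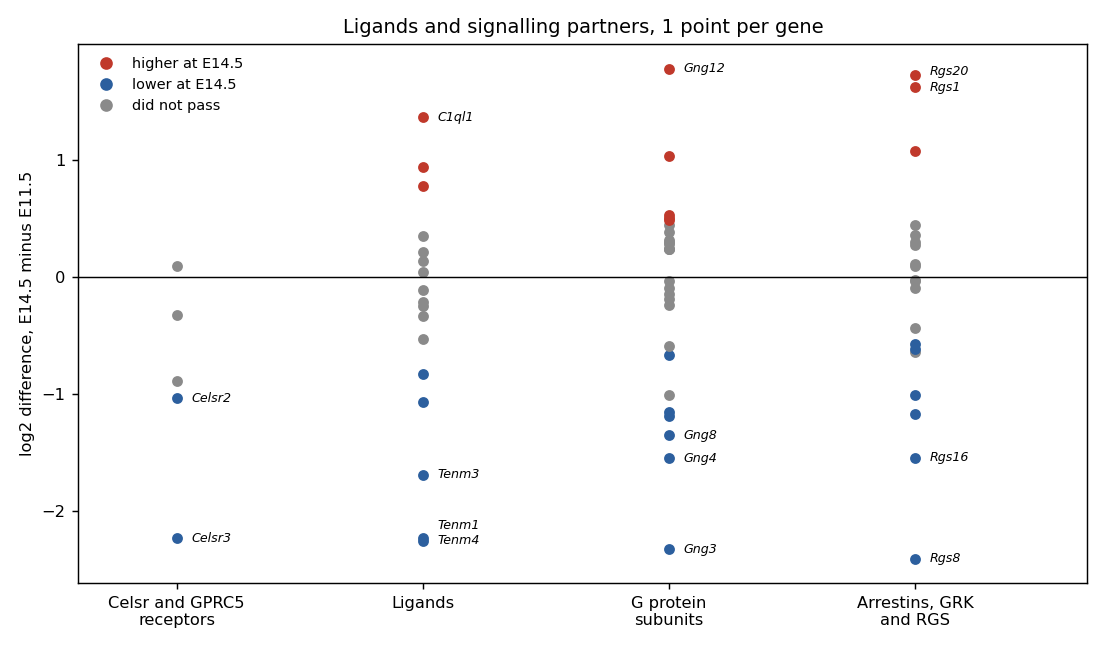
Log2 difference, E14.5 minus E11.5, with 1 point per tested gene for Celsr and GPRC5 receptors (5), ligands (17), G protein subunits (26) and arrestins, receptor kinases and RGS proteins (20); red is higher, blue lower and grey not passing, and named genes are the largest called ones of each list. Each list other than the first holds points on both sides of 0 among the called genes.

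The 2% trimmed mean signal was 154 and 103 on the E14.5 arrays and 187 and 252 on the E11.5 arrays, and the number of arrays limits the precision of every value. Of 12 neural progenitor markers 6 were higher and 2 lower, with Sox2 at 4015 and 4272 in E14.5 cells and 2887 and 2572 in E11.5 cells. Of 6 tested endothelial and pericyte markers 2 were higher and 1 lower, with a summed signal of all 14 of 467 to 507 on the E14.5 arrays and 410.5 to 529 on the E11.5 arrays; the defining marker Pecam1 was at 1.90 and 7.73 in E14.5 cells and 7.18 and 11.7 in E11.5 cells. Of 9 tested meningeal and mesenchymal markers 2 were higher and 3 lower, with a summed signal of all 11 of 4057 to 4154 on the E14.5 arrays and 1377 to 1381 on the E11.5 arrays; Pdgfra, which oligodendrocyte precursors also express, averaged 3204 in E14.5 cells and 73.9 in E11.5 cells. Both tested erythroid markers were lower, with a summed signal of the 5 on the array of 46.1 to 102.5 on the E14.5 arrays and 388 to 826 on the E11.5 arrays.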

How the data were processed

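Total RNA was labelled with biotin and hybridised to 4 Affymetrix arrays. For each array the authors deposited a linear intensity for every probe set, and GCOS is named per the submitters' processing notes. Its settings were not given in the sources at hand, and no use was made of detection calls. Of 45037 probe sets without controls, the platform annotation named 1 gene for 34945. Each array was scaled to a common 2% trimmed mean of 174, because the deposited intensities differed up to 2.43-fold in it. Probe sets with a mean under the 40th percentile (27.3) were left out, leaving 27022, and log2 was taken after adding 12.8, the 25th percentile of all values. The test was that of limma 3.58.1 under R 4.3.3 (lmFit, then eBayes with trend, 2 residual and 7.99 prior degrees of freedom), adjusted by Benjamini-Hochberg over all 27022. The fit was tested on simulated data with independent noise, which cannot show how often calls are wrong on these arrays.

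Groups and replicate numbers come from the sample titles. Values on every array are given for called receptors with an absolute log2 difference of at least 1. They are also given for the 8 brightest that did not pass. Up to 4 called and 2 other genes of each list of partners are named. Values of other receptors and of Tenm2, Flrt1, Psap, Col3a1, Sox2, Pdgfra and Pecam1 were added after they were seen. The members and lists were chosen with earlier results of these data known. Tables of proteins were not used. Alternatives were another normalization, no scaling, 2 pseudocounts, 2 filters, no variance trend, averaged probe sets, a replicate block and each array left out.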

Additional observations from a re-analysis of the deposited data

How the results depend on the processing

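Of the 17 called receptors, 11 kept their call under each of the 12 alternatives with scaled arrays that tested them: Adgre1, Adgrg1, Adgrl2, Adgrl3, Gpr146, Gpr19, Gpr27, Gpr37l1, Gpr50, Gpr83 and Gpr85. None of the 17 turned direction there. Of the 11, Gpr146, Gpr27, Gpr37l1, Gpr50 and Gpr83 were not tested under the stricter filter on low signals, so their calls were not put to it. The count of receptors higher at E14.5 was 9 (0 without scaling) and that of receptors lower at E14.5 was 8 (4 with the stricter filter, which left fewer genes to test). The number that did not pass was 35, with 67 when no filter was used and 12 with the stricter one. Without the variance trend 2251 genes were called in all, against 3606.

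With each array left out in turn, the higher receptors numbered 8 to 12, the lower 6 to 8, those not passing 34 to 37 and all genes called 2829 to 3490. Same-numbered replicates did not deviate together (r = 0.004 across probe sets), so the numbers were not taken as pairs; with the replicate number as a block, 12 receptors were higher and 8 lower, 32 did not pass, the 17 calls were kept and Adgrb2, Adgre5 and Gpr137 were added. The 7 receptors that did not pass but did under at least 1 alternative were these 3, Gpr108, Gpr155, Gpr176 and Gpr183.

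Among genes with values given above, the sign turned without scaling, with the median of all genes at -0.69, for Adgrb1 (-0.33), Adgrb2 (-0.35), Adgrb3 (-0.60), Gpr107 (-0.30), Gpr108 (-0.29), Gpr137 (-0.17), Gpr137b-ps (-0.12), Gpr180 (-0.43), Gpr89 (-0.60), Gprc5b (-0.65), Gnb2 (-0.50), Rgs12 (-0.41) and Arrb2 (-0.65). That of Gpr37 turned under quantile normalization (0.010). With 1 array left out, the sign turned in a range of -0.25 to 0.20 for Gpr37, -0.26 to 0.19 for Adgrl1, -1.47 to 0.082 for Gpr183, -0.38 to 0.16 for Flrt2 and -0.13 to 0.32 for Gprc5b; the cause was not tested.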
